A study of Homo sapiens with 12 samples.

Results

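H19 is a long non-coding RNA transcribed from the imprinted region at the tip of the short arm of human chromosome 11, and IGF2 is the protein-coding gene beside it. Sites enriched by precipitation of RNA with an anti-1-methylguanosine (m1G) antibody were listed for PANC-1 cells, and H19 held 4 of 9585 MetDiff peaks and 5 of 3705 MACS2 summits, and IGF2 held 0 of either. The peaks and summits were those whose exon blocks or position lay inside the RefSeq span of the gene on GRCh38, also where another gene overlapped it. H19 was chosen by its number of peaks, their fold and the −log10 q of its summits in these lists, so its counts and values are a description and no test was made on them.

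H19 and IGF2 are the textbook pair of reciprocally imprinted genes. H19 is normally transcribed from the maternal chromosome and IGF2, which encodes a fetal growth factor, from the paternal one, under a control region between them that CTCF binds on one parental chromosome only. H19 is capped, spliced and polyadenylated like an mRNA, is abundant in the fetus, is mostly silent in adult tissue and is expressed again in many tumours. It is also the host of the microRNA gene MIR675.

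PANC-1 is an established cell line that was derived from a pancreatic ductal adenocarcinoma of a human patient. Polyadenylated RNA of these cells was cut into short fragments and then either precipitated with the m1G antibody and eluted with free modified nucleoside (m1G precipitated RNA) or kept as input. Cells were TRMT5 knockdown cells, transfected with siRNA and taken after 4 days, or cells labelled WT control; TRMT5 methylates guanosine beside the anticodon of tRNAs. The 12 libraries, all of experiment 2 and batch II, formed 4 groups of 3 replicates: m1G precipitated RNA from TRMT5 knockdown cells, input RNA from TRMT5 knockdown cells, m1G precipitated RNA from control cells and input RNA from control cells. Nothing in the labels says whether replicates came from separate cultures.

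Both lists describe the whole series, with no value for a single library, and neither has a column whose label sets knockdown beside control. No difference between TRMT5 knockdown and control cells could therefore be computed for H19 or IGF2, no value carries a replicate error, and the depth behind each value is unknown. The fold printed for a MetDiff peak is the authors' ratio, read as precipitated over input RNA from its place in a table without header. The −log10 q printed for a summit is also the authors' value and measures significance, which depends on read number as well as on enrichment. The keratins KRT8, KRT18 and KRT19, the ductal transcription factor SOX9, the cadherins CDH1 and CDH2 and the mesenchymal filament gene VIM had peaks. KRT7, EPCAM, MUC1 and FN1 had none, and 0 of 13 acinar, islet, stellate and immune markers had a peak or a summit. Over all protein-coding genes 21.8% had a peak and 9.4% a summit, so a marker with neither is the usual case. Cell identity was not tested by these markers.

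The second MetDiff peak of H19, counted from the 5′ end, contained the whole MIR675 hairpin, and the RefSeq sequence of this hairpin is shown because it is the stretch of H19 under a peak for which a sequence was given. It lies at chr11:1996759-1996831 on the minus strand of GRCh38.p14. In the hairpin, capitals mark the mature microRNAs, and in the mature microRNAs capitals mark the seed, bases 2 to 8.
MIR675 hairpin: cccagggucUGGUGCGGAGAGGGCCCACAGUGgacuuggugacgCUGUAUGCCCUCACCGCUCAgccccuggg
hsa-miR-675-5p: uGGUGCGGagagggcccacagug
hsa-miR-675-3p: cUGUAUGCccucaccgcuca
The hairpin is 73 bases long, and 26 of them are guanines (35.6%), against a median of 27.0% over the 1562 human hairpins of the table. A guanine share at least as high was found in 232 of these hairpins (14.9%). The mature miR-675-5p holds 11 guanines in 23 bases and the mature miR-675-3p 3 in 20. The other guanines of the hairpin lie outside both. The seed of miR-675-5p was shared by 1 other mature microRNA of the 2545 in the table, hsa-miR-4466, and that of miR-675-3p by 0.

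All 4 MetDiff peaks of H19 were listed under the gene ID ENSG00000130600 on the minus strand. RefSeq places H19 on chromosome 11 from 1995176 to 2001266, a span of 6091 bases for 7 transcripts. Since the gene runs on the minus strand, its 5′ end is at 2001266. The peaks are given here in the order in which the transcript is made.

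The first peak, at 1997429 to 1997729, began 3537 bases from the 5′ end of the span. It covered 301 exonic bases, and its fold was 2.62 at a false discovery rate (FDR) of 3.39e-05. The second peak, at 1996730 to 1996980, covered 251 exonic bases, and its fold was 4.30 at the same FDR. Both folds were below the median of 4.5 over all MetDiff peaks: 81.5% of peaks had a fold at least as high as the first, and 52.9% at least as high as the second.

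The third peak, at 1996175 to 1996580, had the highest fold in H19, 11.3 (FDR 4.17e-05), a value that 841 peaks of the list reached (8.77%). It covered 350 exonic bases in 3 blocks, and 612 peaks of the list (6.38%) had 3 or more blocks. The gaps between its blocks were 6 and 50 bases long, against a median of 594.5 bases over 4004 such gaps in the list. Gaps of at most 50 bases were 62 in number (1.55%), and gaps of at most 6 bases were 6. No exon annotation was used here, so it was not tested whether these short gaps are introns of H19.

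The fourth peak, at 1995326 to 1995426, lay 150 bases from the 3′ end of the span. It covered 101 exonic bases, the median length in the list, and its fold was 3.31 (FDR 4.07e-04). The fold was thus not ordered along H19: it was highest in the third peak and below the median of the list in the other 3. The highest fold was 4.31 times the lowest.

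The peaks covered 1003 exonic bases of H19 in all. Of 4515 gene IDs in the MetDiff list, 143 (3.17%) had at least as many exonic bases in peaks, H19 included, while 681 (15.1%) had at least 4 peaks and 768 (17.0%) had a peak with a fold of at least 11.3. H19 ranked higher by the length under its peaks than by their number or fold. Its first 3 peaks were long: a length of at least 301, 251 and 350 bases was found in 3.75%, 7.36% and 2.56% of all peaks.

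The summits of the MACS2 list were strongest at the 5′ side of the same stretch. The first summit, at 1997696 and 3570 bases from the 5′ end of the span, had a −log10 q of 107, and 14 of all 3705 summits (0.378%) were at least as strong. The second, at 1997053, had 67.3 and the third, at 1996483, had 38.9. The fourth, at 1995834, had 12.0, and the fifth, at 1995507, had 15.6. The first 4 summits were thus in descending order along the transcript, and only the last went against it. The strongest value was 8.89 times the weakest, and the first 3 summits were above and the fourth below the median of 13.7 over the list.

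The 5 summits were spaced 643, 570, 649 and 327 bases apart. By their names, the first 3 belonged to a single MACS2 peak and the last 2 to another. Of 3456 MACS2 peaks, 173 held 2 summits and 27 held 3 or more. Summits of peaks with 3 or more made up 2.78% of the list.

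**Figure D1:**
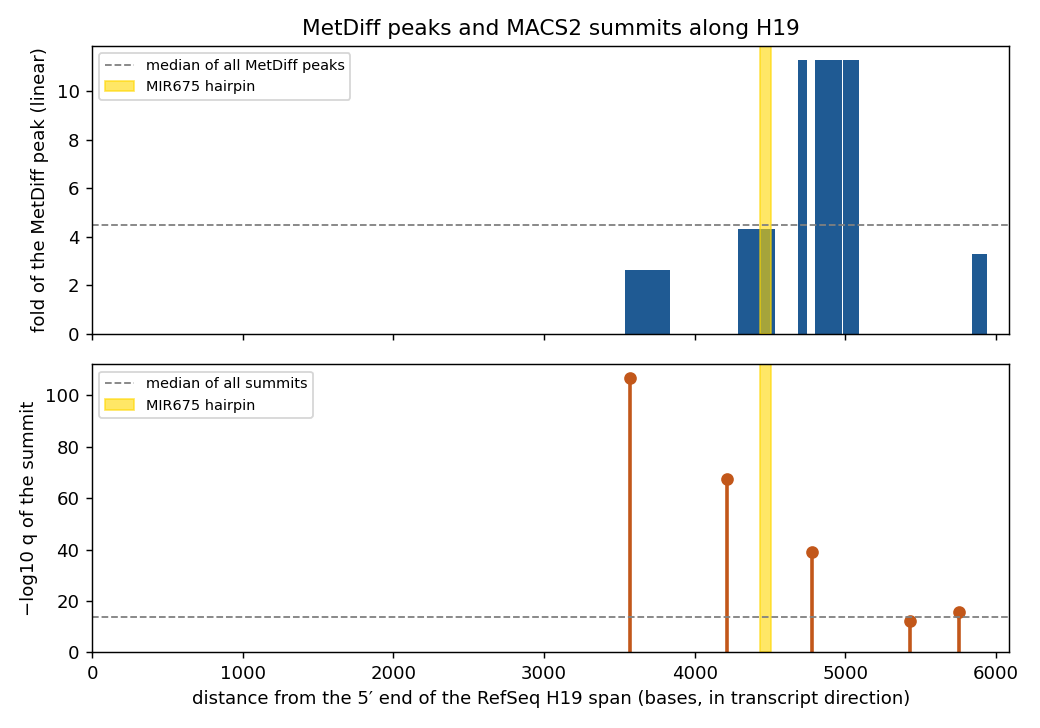
MetDiff peaks (upper panel, bars as wide as each exon block, height the authors' fold on a linear axis) and MACS2 summits (lower panel, −log10 q) against the distance in bases from the 5′ end of the RefSeq H19 span. The fold is highest, 11.3, in the third peak, while the summits fall from 107 at the 5′ side to 12.0 and 15.6 at the 3′ side; dashed lines are the medians of all peaks (4.5) and all summits (13.7), and the yellow band is the MIR675 hairpin.

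Peaks and summits of H19 marked the same stretch but mostly not the same bases, and most summits of the whole list lay outside a block too. The first summit lay inside the first MetDiff peak, and 1 of the 5 summits was inside an exon block; over the whole list 17.7% were. The third summit fell into the 50-base gap between 2 blocks of the third peak, 16 bases from the nearest block. The second was 73 bases from the second peak, the fifth 81 bases from the fourth peak, and the fourth summit was 341 bases from the nearest block. Within 50 bases of a block were 2 of the 5 H19 summits, against 37.5% of all summits, and within 150 bases 4 of 5, against 63.6%. The lists may rest on the same libraries, so their agreement is no independent evidence.

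The strongest summit of H19 lay in its peak of lowest fold. Among 294 gene IDs with at least 3 MetDiff peaks and a summit inside a block, H19 included, the strongest such summit lay in the lowest-fold peak in 28 (9.52%) and in the highest-fold peak in 121 (41.2%). Of the 63 such IDs with exactly 4 peaks, 2 (3.17%) had it in the lowest-fold peak, and H19 was 1 of them. H19 had only 1 summit inside a block, so its strongest such summit was not chosen among several. Its summit of 38.9 lay in a gap between blocks of the peak with fold 11.3 and was not counted. H19 was also chosen by its folds and summits, so these shares describe it and test nothing. The place of the strongest summit along the gene was also counted. Among 225 genes that were the sole gene at 3 or more summits, the strongest was the 5′-most in 73 (32.4%) and the 3′-most in 49 (21.8%). Among the 74 such genes with 5 or more summits it was the 5′-most in 11 (14.9%).

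All 9 peaks and summits of H19 lay in a stretch of 2404 bases at the 3′ side of the RefSeq span, 39.5% of that span. The 3537 bases between the 5′ end of the span and the first peak held none. The RefSeq span is the union of 7 transcripts, so its 5′ end need not be where the H19 RNA of PANC-1 cells starts. The transcripts that PANC-1 cells make were not analysed here. A place within the span is therefore not a place within the RNA.

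The MIR675 hairpin lay between the second and the third summit. Its 5′ end was 149 bases from the 5′ edge of the second MetDiff peak and its 3′ end 29 bases from the 3′ edge, and it made up 29.1% of the bases of that peak. The second summit was 222 bases upstream of the hairpin and the third 276 bases downstream, so no summit fell on the sequence printed above. A hairpin wholly inside a MetDiff exon block on its own strand was found for 3 of the 1562 human hairpins (0.192%). The libraries were made from fragments of polyadenylated RNA, and the peak over MIR675 was listed under the H19 gene ID on the minus strand. It is therefore read here as a peak on the H19 transcript, which was not tested. Mature miR-675 was not analysed here.

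By position alone, 0 of the H19 peaks or summits lay in H19 only, because the RefSeq span of MRPL23, which encodes a protein of the mitochondrial ribosome, covers the whole of H19. MRPL23 had 1 peak and 1 summit of its own outside H19. This peak, at 1956389 to 1956587, was listed on the plus strand under another gene ID, with fold 3.48 (FDR 6.31e-05), and lay 38589 bases from the H19 span. The summit, at 1956374, had a −log10 q of 12.3. No MetDiff peak in the H19 span carried the plus strand or another ID. The MACS2 list gives no strand, so the gene of a summit rests on its position.

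IGF2 (chromosome 11, 2129117 to 2149566, with 5 RefSeq transcripts) had 0 MetDiff peaks and 0 summits in a span of 20450 bases, which is longer than that of H19. The span of its overlapping antisense RNA IGF2-AS, that of its intronic microRNA gene MIR483 and that of the read-through gene INS-IGF2 also held none. H19 and IGF2 spans are 127850 bases apart. The stretch without any peak or summit reached from the first H19 peak at 1997729 over 395435 bases, past IGF2, to a peak in CD81. It held 16 RefSeq genes in full, 7 of them protein-coding, among them IGF2, the insulin gene INS, the tyrosine hydroxylase gene TH, ASCL2 and TSPAN32. A gene without a peak may be unexpressed, shallowly covered or not enriched, and these cannot be told apart in lists that hold only sites past a threshold. Of all 59716 RefSeq genes, 8.2% had a MetDiff peak in the span and 3.54% a summit; of 20050 protein-coding genes 21.8% and 9.4% did, so the absence of IGF2 is the usual case.

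**Figure D2:**
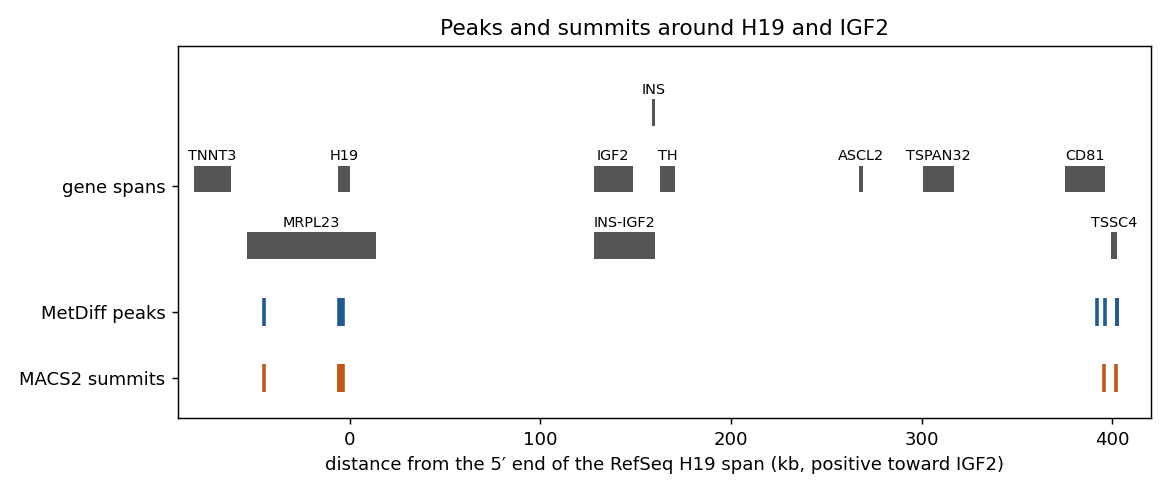
Gene spans (grey bars), MetDiff peaks (blue ticks) and MACS2 summits (orange ticks) against the distance in kb from the 5′ end of the H19 span, positive toward IGF2. The 4 peaks and 5 summits of H19 merge at this scale, no tick lies over IGF2, and the next ticks on that side are in CD81 and TSSC4.

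The list of genes of this imprinted region held 28 symbols, 26 of them in the RefSeq table. A MetDiff peak lay in the span of 7 (26.9%) and a summit in 5 (19.2%), H19 included, beside 21.8% and 9.4% of protein-coding genes and 8.2% and 3.54% of all RefSeq genes. MIR675 was among the 7 through an H19 peak only, and MRPL23 through the H19 peaks and 1 peak of its own. CD81, a tetraspanin of the cell surface, had 2 peaks with a fold up to 8.17 and 1 summit with a −log10 q of 30.2. TSSC4, a factor of spliceosome assembly, had 2 peaks up to 8.56 and 1 summit of 18.1. CTSD, which encodes the lysosomal protease cathepsin D, had 7 peaks up to 10.2 under 3 gene IDs and 6 summits up to 56.1. Of these, 3 peaks and 5 summits lay in CTSD only. CARS1, the cysteinyl-tRNA synthetase, had 2 peaks up to 6.68 and 0 summits. The imprinted growth inhibitors CDKN1C and PHLDA2, the potassium channel gene KCNQ1 and its antisense RNA KCNQ1OT1 had none. H19 had both the highest fold and the strongest summit of the region.

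Imprinted genes elsewhere in the genome had peaks in 10 of 31 members (32.3%) and summits in 6 (19.4%), beside the 21.8% and 9.4% of protein-coding genes and 8.2% and 3.54% of all genes. These shares count a site for every gene whose span holds it. With sole-gene sites only, 7 members had a peak and 4 a summit. MEG3, a maternally expressed long non-coding RNA that is often set beside H19, had 9 MetDiff peaks with a fold up to 10.3, but 1 summit with a −log10 q of 3.10. MEG8, in the same cluster, had 6 peaks up to 19.4, and RTL1, which overlaps it, had 4 up to 10.4, 0 of them in RTL1 only. Both had 0 summits. GNAS, the gene of the stimulatory G protein subunit, had 1 peak of 7.14 and 2 summits up to 27.5. SNRPN and SNURF share a transcript and had the same 2 peaks, up to 9.05, and the same summit of 14.8; SNHG14, whose long span contains them, had 10 peaks up to 15.7 and 3 summits. BLCAP had 1 peak of 20.1 and PEG10 1 of 3.60, both without a summit. H19 and MEG3 thus had similar highest folds, 11.3 in H19 and 10.3 in MEG3, beside strongest summits of 107 in H19 and 3.10 in MEG3. IGF2R, described next, was also among the 10.

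Among the ligands, receptors and binding proteins of the insulin-like growth factors, MetDiff peaks were found in 5 of 16 genes (31.2%) and summits in 4 (25.0%), beside 21.8% and 9.4% of protein-coding genes and 8.2% and 3.54% of all genes. IGF2R, the receptor that removes IGF2 and is itself imprinted in the mouse, had 3 peaks with a fold up to 10.0 and 4 summits up to 37.9. The secreted binding protein IGFBP2 had 1 peak of 10.4 and 3 summits up to 51.0, and IGFBP4 1 peak of 5.37 and 1 summit of 27.1. IGFBP7 had 2 peaks up to 5.64 and 2 summits up to 71.4, where the antisense RNA IGFBP7-AS1 overlaps it. IRS1, the adaptor of the insulin and IGF1 receptors, had 2 peaks up to 9.94 and 0 summits. The receptors IGF1R and INSR, the ligands IGF1, IGF2 and INS, the binding proteins IGFBP1, IGFBP3, IGFBP5, IGFBP6 and IGFALS, and the adaptor IRS2 had none. The 5 genes with a peak had 9.94 as the median of their highest folds, where the same median over every gene with a listed peak was 6.20, and H19 was above all 5 in highest fold and in strongest summit.

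**Figure D3:**
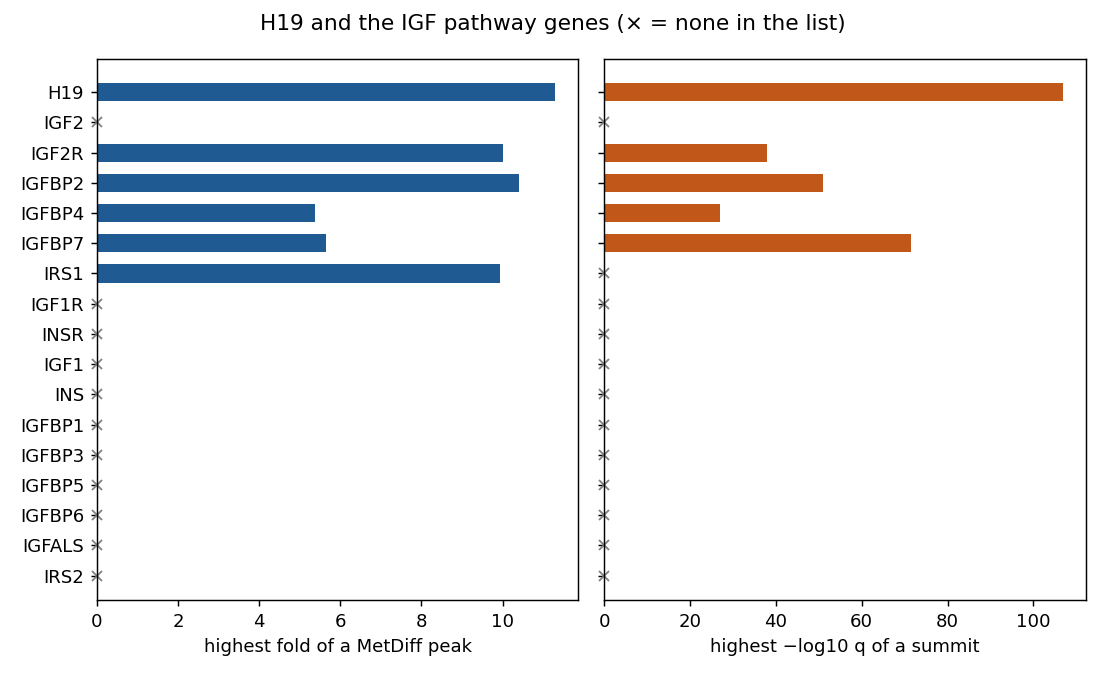
Highest fold of a MetDiff peak (left panel, blue) and highest −log10 q of a summit (right panel, orange) in H19 and in each gene of the insulin-like growth factor list; a cross marks a gene with none in the list. H19 reaches 11.3 and 107, IGF2 has none, and 5 genes of the list have a peak.

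Proteins known to bind or regulate H19 or IGF2 RNA, or to process microRNAs, had peaks in 9 of 20 members (45%) and summits in 4 (20%), where the shares of protein-coding genes were 21.8% and 9.4% and those of all genes 8.2% and 3.54%. PTBP1, a splicing repressor, had 7 peaks with a fold up to 11.9 and 2 summits up to 16.4, and the nuclear matrix protein HNRNPU had 2 peaks up to 7.18 and 2 summits up to 49.0. KHSRP, an RNA decay factor known to bind H19, had 2 peaks up to 3.55 and 1 summit of 7.97. Of the microRNA processing genes, DGCR8 had 4 peaks up to 6.20, DICER1 2 up to 7.17 and DROSHA 1 of 1.46, all without a summit. MBD1, a reader of DNA methylation, had 1 peak of 11.2, HMGA2 2 up to 2.40 and ELAVL1 1 of 3.10, again without a summit. EZH2 had 1 summit of 5.37 and 0 peaks. The IGF2 mRNA-binding proteins IGF2BP1, IGF2BP2 and IGF2BP3, the imprinting control factor CTCF and both LIN28 genes had none.

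Among long non-coding RNAs, H19 stood near the top of the MACS2 list and lower in the MetDiff list. Of 18303 lncRNA genes in the RefSeq table, 415 (2.27%) had a MetDiff peak in the span, 150 (0.82%) a summit and 110 had both. Of these 110, 1 besides H19 had a summit at least as strong: VIM-AS1, with 109, whose summit lies also in the abundant mRNA gene VIM. At least 5 summits were found in 4 lncRNA genes, namely H19, NEAT1 with 5, MALAT1 with 8 and LOC107985291 with 8. The 5 of NEAT1 lay in NEAT1 only, while those of MALAT1, like those of H19, all lay in another gene span too. LOC107985291 had 1 peak, of fold 1.28, and whether its summits belong to an overlapping gene was not tested. At least 4 MetDiff peaks were found in 48. In a list of 16 lncRNAs of cancer cells, H19 not among them, 5 had a peak (31.2%, MEG3 included) and 4 a summit (25.0%), beside the 2.27% and 0.82% of all lncRNA genes. The highest fold was 11.3 in H19 and 12.7 in NEAT1, the scaffold of paraspeckles, which had 10 peaks in a span of 22743 bases and summits up to 34.6. MALAT1, a nuclear RNA, had 1 peak of 3.75 and summits up to 92.0. NORAD had 2 peaks up to 6.56 and 1 summit of 7.57, and TUG1 1 peak of 2.82 and 0 summits.

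The counts of H19 were also set beside those of all RefSeq genes, of which 8.2% had a peak and 3.54% a summit. H19 was chosen by these same values, so the shares describe it and test nothing. For peaks and for summits taken singly, the shares were near equal among all genes and among genes of similar span. At least 4 MetDiff peaks were found in 874 of the 59716 RefSeq genes (1.46%), at least 5 summits in 115 (0.193%), and both in 74 (0.124%). A summit at least as strong as that of H19 was found in 13 (0.0218%); these counts include H19 itself and MRPL23, which spans it. Among 12701 genes with a span between 0.5 and 2 times that of H19, 185 had at least 4 peaks (1.46%), 23 at least 5 summits (0.181%) and 11 both (0.0866%). Besides H19 these were the protein-coding genes VWA1, NES, WDR6, LAMB2, KIFC2, CTSD, MCAM, RHOT2, CHTF18 and FKBP10, so H19 was the single non-coding gene among them. Sites shared with overlapping genes are counted here, and CTSD had 3 peaks in its span only. VWA1, a matrix protein, had the strongest summit of the 11, 131, and H19 the next. NES, which encodes nestin, had 8 peaks and 7 summits in 8645 bases, but its strongest summit had a −log10 q of 40.0.

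The genes whose pattern was most like that of H19 were sought among the 1764 genes with a peak and a summit in the span. Likeness was the distance between percentile ranks of number of peaks, highest fold, number of summits and strongest summit. H19 stood at the 77.7th, 72.6th, 94.8th and 99.6th percentile of these. The nearest was NME1-NME2, a read-through of the nucleoside diphosphate kinase genes, at a distance of 3.08. It had 4 peaks up to 12.0 and 5 summits up to 72.6, with 0 of either in its span only. The single genes NME1 and NME2 had 2 peaks each, with 3 summits in NME1 and 2 in NME2. RACK1, a protein of the small ribosomal subunit, followed at 7.43, with 4 peaks up to 11.5 and 4 summits up to 46.5. MRPL23 came next at 8.98, through the peaks and summits of H19 and 1 peak and 1 summit of its own. The fatty acid synthase gene FASN, at 10.6, had 5 peaks up to 10.7 and 16 summits up to 70.9, and the acyl-CoA dehydrogenase gene ACADVL, at 11.3, had 5 peaks up to 11.5 and 4 summits up to 47.6. All 4 genes other than MRPL23 had weaker strongest summits than H19.

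**Figure D4:**
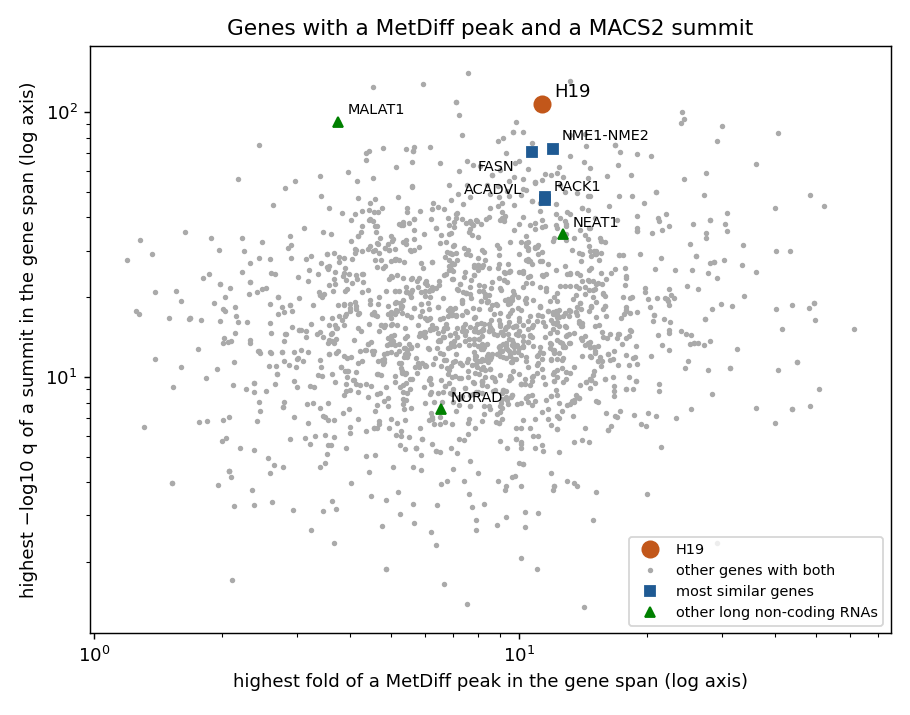
Highest −log10 q of a summit against highest fold of a MetDiff peak, both on log axes, for the 1764 genes with both in the span. H19 (orange, 11.3 and 107) lies at the top of the cloud and at a middle to high fold, with NME1-NME2, RACK1, FASN and ACADVL (blue squares), 4 of the 5 most similar genes, below it; MRPL23 shares the values of H19 and is not marked, and green triangles are MALAT1, NEAT1 and NORAD.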

How the data were processed

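The deposited data are 2 peak lists of the whole series, made from 12 libraries of polyadenylated RNA. Reads were handled, per the submitters' processing notes, with STAR 2.7.1, MACS2 2.2.5, SAMtools, Picard, bedtools, edgeR, DESeq2, featureCounts and ChIPseeker on GRCh38. No source used here states what each tool did, which libraries entered the peak calling or whether they were pooled. The authors' MACS2 list gives summits of 1 base with a value read as −log10 of a q-value, from its smallest value of 1.35. The authors' MetDiff list gives exon blocks, a p-value, an FDR as its log10, and a deposited ratio read as fold of precipitated over input RNA; it was under 1 in 0 peaks. No header states these units. The depth is unknown, so no interval is given. The library groups enter no comparison.

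From these, block positions (counted from 1), FDR, distances, ranks and counts were computed with Python 3.11.15 and pandas 2.3.3. Genes were placed by RefSeq spans (GRCh38.p14), which hold no exons. The code that places peaks in genes was tested on simulated data. RefSeq hairpin and mature microRNA sequences were used; a genome sequence was not used here. H19, IGF2 and the gene lists were chosen with earlier results of these data known. By rule, the genes named with values were H19, IGF2, list members with a peak or summit, genes overlapping H19 or IGF2 and the 5 genes most like H19. Some list members with neither are named as such. The genes of similar span, VIM-AS1, LOC107985291, IGFBP7-AS1, miR-4466, the genes between H19 and CD81 and the other hairpins with their host genes were named after their values were seen.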

Additional observations from a re-analysis of the deposited data

How the results depend on the processing

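Of 16 alternatives, 12 left the counts within 1.5 times. The 4 MetDiff peaks of H19 stayed 4 at an FDR under 0.01, at a fold of at least 2, with blocks wholly inside the span and by gene ID, and the 5 summits stayed 5 at a −log10 q of at least 10 and in a span extended by 500 bases. Counting only sites with a sole RefSeq gene gave 0 peaks and 0 summits in H19, because the span of MRPL23 covers it. The 1 summit inside a block became 2 within 50 bases and 4 within 150 bases. IGF2 stayed at 0 under its 4 alternatives. The genes with at least as many peaks as H19 were 591 in place of 874, and those with at least as many summits 94 in place of 115, with sole-gene sites. No paired analysis was possible because neither list holds a value per library; for the same reason no replicate could be left out. Limits are the unknown depth, the unlabelled ratio and gene spans without exons.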

Other observations

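Besides MIR675, the microRNA hairpins wholly inside a MetDiff exon block on their own strand were MIR6084, in the span of PINK1 on chromosome 1 (block fold 6.38, FDR 7.24e-04), and MIR3652, in the span of HSP90B1 on chromosome 12 (block fold 10.4, FDR 6.76e-06). MIR675 had the lowest fold of the 3, 4.30. The guanine shares were 35.6% in MIR675, 40.9% in MIR6084 and 42.7% in MIR3652. Another 18 hairpins overlapped a block on their own strand in part.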
